A study of Mus musculus with 6 samples.

Results

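The SLC25 family comprises the mitochondrial carriers, small membrane proteins that each move one or a few metabolites, nucleotides, cofactors or ions across the inner mitochondrial membrane. Its members were taken as every row of the deposited expression table whose mouse Ensembl identifier maps to a symbol beginning with Slc25a, whatever its value. This gave 42 genes of 16665 in the table. The annotation holds 48 such symbols, and the 6 with no row were Slc25a21, Slc25a27, Slc25a31, Slc25a34, Slc25a54 and the pseudogene Slc25a5-ps.

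Expression was measured by mRNA sequencing of total RNA from RAW264.7 cells, a line of mouse leukaemia origin with macrophage features, grown in medium with serum. A group of 3 libraries came from cells transfected with a miR-125b mimic (genotype given as miR-125b overexpression), and a group of 3 came from cells transfected with a negative control, NC (genotype given as miR-125b WT). Both groups therefore share the line and the act of transfection. The labels give neither the arm of miR-125b in the mimic nor the time after transfection, and the microRNA itself was not measured. They do not say either whether the replicates were separate cultures. A p-value here thus measures the spread among these libraries only, and that spread may be technical.

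A carrier of this family is built from repeated pairs of membrane-spanning helices and works by alternately opening to the matrix and to the space between the membranes, often exchanging one substrate for another. ADP/ATP carriers export the ATP made by oxidative phosphorylation, the phosphate carrier brings in its other substrate, and the citrate, oxoglutarate, dicarboxylate and aspartate-glutamate carriers link the citric acid cycle to the cytosol. In macrophages, citrate that leaves mitochondria through its carrier feeds acetyl-CoA for lipid synthesis and inflammatory mediators. Most members reach the inner membrane through the TIM22 import complex.

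A microRNA finds its targets mainly through its seed, bases 2 to 8, which pairs with sites in the 3′ untranslated region (3′ UTR) of an mRNA. The mature 5p arm of miR-125b (RefSeq, GRCm38.p6) is shown with the seed in capitals, because the sites below are defined by it.
mmu-miR-125b-5p: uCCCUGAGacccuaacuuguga
Sites pairing with the whole seed (CTCAGGG) or with bases 2 to 7 followed by an A (TCAGGGA) were searched on the transcript strand in the longest annotated 3′ UTR. Of the 30 members that passed the expression filter described below and have an annotated 3′ UTR, 9 (30.0%) held at least 1 site, against 22.2% of 9312 tested genes with a 3′ UTR. Among them were Slc25a15, Slc25a16, Slc25a23, Slc25a32, Slc25a36, Slc25a40, Slc25a44 and Slc25a45. The median 3′ UTR was 2027 bases in these 9 and 740 in the 21 without a site, so the longer regions also offered more places for a match. Stretches of 3′ UTR around the site are shown for the member with the highest fold change (Slc25a40), for another that was higher in mimic libraries (Slc25a36) and for one that was lower (Slc25a45), with the site in capitals, from GENCODE transcripts.
Slc25a40 (chr5:8453781-8453787, plus strand): acgtctttaatTCAGGGAcattgtgttcc
Slc25a36 (chr9:97077059-97077065, minus strand): ataagtgtcctTCAGGGAtaacatgtagc
Slc25a45 (chr19:5885391-5885397, plus strand): ttccattacctTCAGGGAaacccaggtcc
The only site with both features, seed match and following A, lay in Slc25a35, which was too low to be tested. A match is a description of letters and was not tested for binding.

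Depth, recovered from the steps of the low values, was 14.447 to 16.814 M fragments per library and differed little between groups. All 8 macrophage markers checked were at 1 FPKM or more (fragments per kilobase of gene, scaled to library depth), with summed levels of 7136 to 8616 in controls and 6379 to 6649 with the mimic, while T cell, B cell and fibroblast markers summed to 0.484 or less in any library and no epithelial marker has a row. Negative control 3 stood apart. It had 13266 genes above 0, against 15141 to 15470 in the other 5 libraries. The SD over genes of the log2 difference between 2 libraries was 0.188 for controls 1 and 2, but 0.563 and 0.556 between control 3 and each of them, and 0.385 between control 3 and mimic 3. Mimic 3 also differed from its group, by 0.334 and 0.345 from mimics 1 and 2, against 0.215 between mimics 1 and 2. Control 3 was nearer to the mimic mean than to the other controls in 65.2% of tested genes and in 17 of 31 tested carriers (54.8%). Each main result is therefore also given without control 3, a comparison that keeps mimic 3.

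Of the 42 genes, 2 averaged 100 FPKM or more, 16 lay between 10 and 100, 13 between 1 and 10, and 11 under 1. The 31 with a mean of at least 1 FPKM were tested, among 10166 genes. The 4 most abundant, Slc25a5, Slc25a3, Slc25a39 and Slc25a4, made up 57.3% to 63.6% of the family's summed FPKM in each library. That sum was 927, 956 and 961 in controls 1, 2 and 3 and 805, 856 and 851 in mimics 1, 2 and 3, so the groups did not overlap. The sum over the whole table did not overlap either, at 300019 to 308447 in controls and 281109 to 284750 in mimics. As a percent of it the family made up 0.305, 0.310 and 0.320 in controls and 0.285, 0.301 and 0.303 in mimics. FPKM is a share of each library, so less carrier RNA per cell and more of other RNA cannot be told apart, nor can fewer cells of a type and less RNA per cell.

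**Figure D1:**
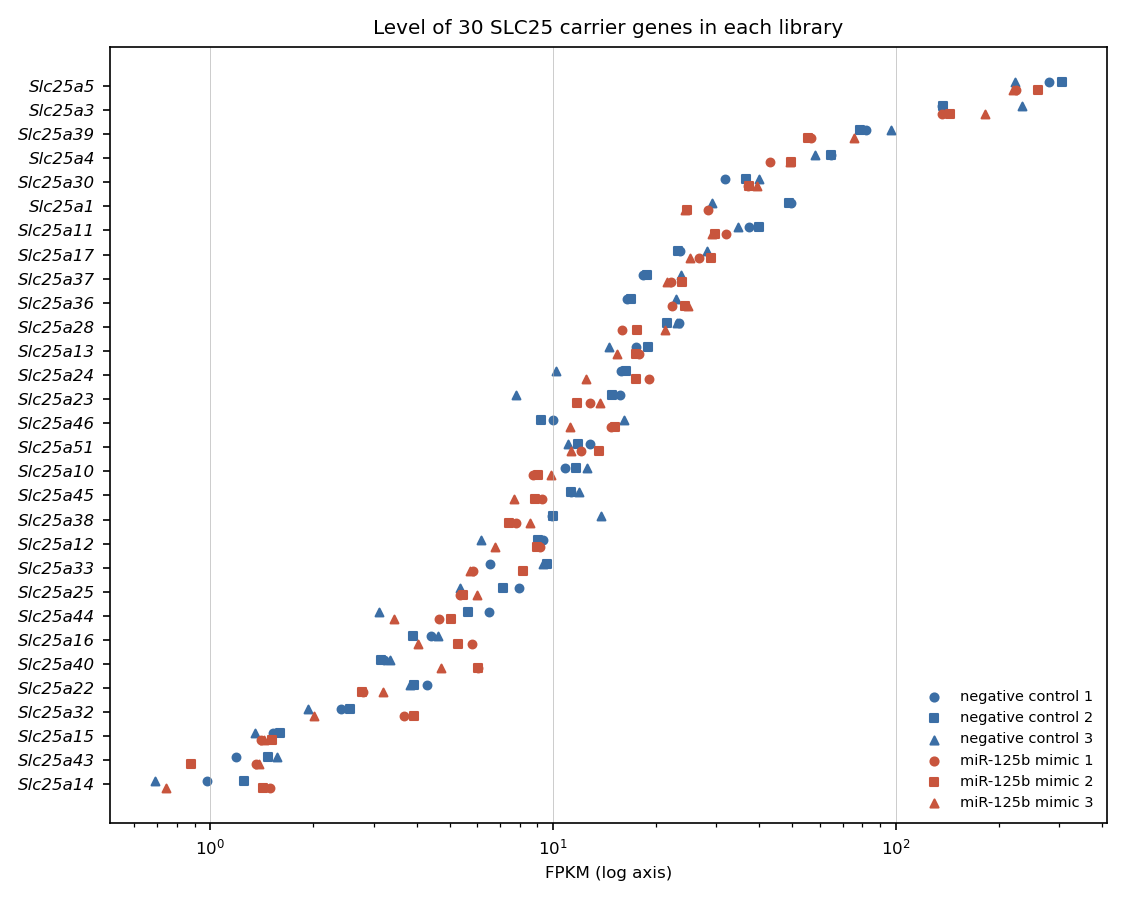
FPKM of 30 of the tested SLC25 genes in each of the 6 libraries (log axis), ordered by mean level, with negative controls in blue, mimics in red and a symbol for each replicate number. Slc25a5 lies at 220.1 to 305 FPKM at the top, Slc25a40 is the row whose red points all lie above the blue ones, and in 9 rows all red points lie below the blue ones.

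The main comparison asked which carriers differed between mimic and control cells. By limma on log2(FPKM + 1), 0 of 31 members passed an adjusted p of 0.05, as did 0% of all tested genes (smallest adjusted p = 0.289). Limma voom, run on the recovered fragments, passed 0 too. Before adjustment, with p under 0.05, 8 members were lower with the mimic (25.8%, against 5.26% of all genes) and 1 was higher (3.23%, against 7.96%). Read without a test, all 3 mimic libraries lay below all 3 controls in 9 members (29.0%, against 7.49% of all genes) and above them in 1 (3.23%, against 12.6%). The 9 were Slc25a1, Slc25a4, Slc25a10, Slc25a11, Slc25a22, Slc25a28, Slc25a38, Slc25a39 and Slc25a45, and the 1 was Slc25a40. Fold changes were below 0 in 18 members (58.1%, against 43.7%) and above 0 in 13 (41.9%, against 56.3%), with a median of −0.095 on the log2 scale beside 0.041 over all genes. The labels state no pairing. Against the control of the same number, the mimic was lower in all 3 pairs in 11 members (35.5%, against 16.2% of all genes). Genes without overlap on the lower side are lower in any pairing, so only Slc25a5 and Slc25a33 were added to the 9 above. The mimic was higher in all 3 pairs in 5 (16.1%, against 24.1%). These were Slc25a14, Slc25a24, Slc25a32, Slc25a36 and Slc25a40, the last already without overlap.

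Without negative control 3, limma at an adjusted p of 0.05 called 5 members lower (16.1%, against 12.2% of all genes) and 2 higher (6.45%, against 11.6%). Slc25a1, Slc25a4, Slc25a11, Slc25a25 and Slc25a45 were lower, and Slc25a36 and Slc25a40 higher. The median fold change of members was then −0.14, beside −0.0064 over all genes. Mimic and control libraries failed to overlap in 21 members without control 3 (67.7%, against 57.9% of all genes). They did so in 10 to 14 members when any other single library was left out. The share of all genes was not computed there, so these counts are not a result about the carriers. With control 3 and mimic 3 both left out, 19 members passed (43.1% of all genes did). With limma's library weights, 22 passed (51.9% of all genes). These weights were 0.086 for control 3 and 0.306 for mimic 3, and their estimate stopped before convergence.

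**Figure D2:**
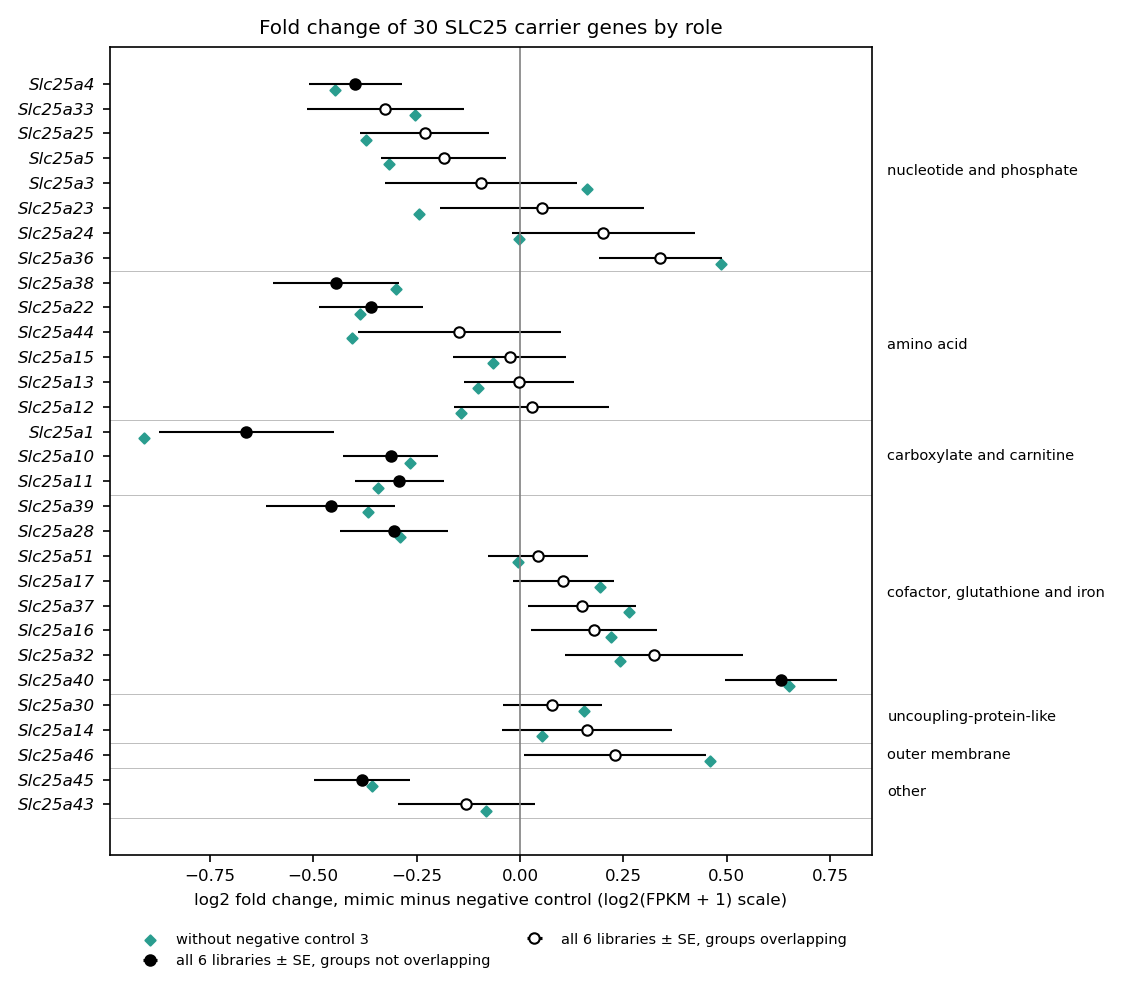
log2 fold change of 30 of the tested SLC25 genes (mimic minus negative control, log2(FPKM + 1) scale), grouped by role. Circles with bars are the estimate from 6 libraries ± SE, filled where the groups did not overlap, and diamonds are estimates without negative control 3. All 3 carboxylate carriers lie to the left of 0, and Slc25a40 lies farthest to the right at 0.63.

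Among the carboxylate and carnitine carriers, every mimic lay below every control in all 3 tested genes, Slc25a1, Slc25a11 and Slc25a10. Over all tested genes this share was 7.49%, and 12.7% among those of at least 50% GC, as these 3 were. The class median log2 fold change was −0.31, and −0.34 without control 3. None passed limma's adjusted threshold on 6 libraries. Without control 3 and the trend on transcript length and GC described further on, Slc25a1 was at −0.51, Slc25a11 at −0.048 and Slc25a10 at 0.13. Their summed level with Slc25a20 was 98.8, 101.6 and 77.8 FPKM in controls and 69.9, 64.4 and 63.9 FPKM in mimics.

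Slc25a1 (ENSMUSG00000003528, chr16:17925223-17928219, minus strand, GRCm38) is the citrate carrier. Its level was 49.5, 48.8 and 29.1 FPKM in controls 1, 2 and 3 and 28.4, 24.6 and 24.4 FPKM in mimics. Controls 1 and 2 stood well above all others, while control 3 lay just above the highest mimic. The log2 fold change was −0.66 (SE 0.21, limma adjusted p = 0.332), the lowest in the family, and without control 3 it was −0.91 (adjusted p = 0.00524).

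Slc25a11 (chr11:70644196-70647479, minus strand), the oxoglutarate carrier of the malate-aspartate shuttle, was at 37.3, 40.03 and 34.6 FPKM in controls and 32.0, 29.8 and 29.1 FPKM in mimics. The log2 fold change was −0.29 (SE 0.11, limma adjusted p = 0.345), and −0.34 without control 3 (adjusted p = 0.0261). Slc25a10 (chr11:120491840-120499187, plus strand), the dicarboxylate carrier that exchanges malate or succinate for phosphate, was at 10.9, 11.7 and 12.5 FPKM in controls and 8.74, 9.03 and 9.90 FPKM in mimics, a log2 fold change of −0.31 (SE 0.11, limma adjusted p = 0.344). Here control 3 was the highest library, and without it the estimate was −0.26 (adjusted p = 0.0831). Both genes share bases with a gene on the opposite strand (Rnf167 and Gm11788). So do Slc25a23, Slc25a25, Slc25a33, Slc25a37 and Slc25a46 among the tested members described below. Among the members too low to be tested, Slc25a18, Slc25a26 and Slc25a35 do as well. No source used here gives the strand setting of the counting, so the levels of all these genes are uncertain to that extent. The remaining member, Slc25a20, the carnitine-acylcarnitine carrier of fatty acid oxidation, missed the filter with a mean of 0.997 FPKM. It was at 1.11, 1.06 and 1.56 FPKM in controls and 0.772, 0.895 and 0.590 FPKM in mimics, so its groups did not overlap either.

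Among 9 genes for nucleotide and phosphate carriers, 8 were tested, 5 with a fold change below 0 and 3 above, and the class median was −0.14, or −0.25 without control 3. Slc25a5 (chrX:36795651-36798807), an ADP/ATP carrier, was the most abundant member at 280.1, 305 and 222 FPKM in controls and 225, 261 and 220.1 FPKM in mimics. These groups overlapped (log2 fold change −0.18, SE 0.15, limma adjusted p = 0.610), and the sign turned under quantile normalisation (0.062). Without control 3, Slc25a5 was at −0.32 (limma adjusted p = 0.0591), and at −0.20 with that trend taken out as well (adjusted p = 0.208). With control 3 and mimic 3 left out, Slc25a5 was at −0.27 (limma adjusted p = 0.0401), where 43.1% of all genes passed. A processed pseudogene, Slc25a5-ps, resembles it, so its reads may be shared. Slc25a4 (chr8:46206797-46211284, minus strand), the ADP/ATP carrier typical of heart and muscle, was at 64.7, 64.7 and 58.3 FPKM in controls and 42.9, 49.6 and 49.3 FPKM in mimics. Every mimic was below every control, with a log2 fold change of −0.40 (SE 0.11, limma adjusted p = 0.332), and −0.45 without control 3 (adjusted p = 0.0163).

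Slc25a3, the phosphate carrier, was at 136.3, 138 and 234 FPKM in controls and 137, 144 and 183 FPKM in mimics. Control 3 and mimic 3 were both high, and the log2 fold change of −0.095 (SE 0.23, limma adjusted p = 0.881) became 0.16 without control 3. In control 3, Slc25a3 exceeded Slc25a5, and in the other 5 libraries Slc25a5 was higher.

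The pyrimidine nucleotide carriers Slc25a36 and Slc25a33 lay on opposite sides of 0. Slc25a36 (chr9:97074961-97111157, minus strand) was at 16.5, 16.8 and 22.9 FPKM in controls and 22.2, 24.2 and 24.8 FPKM in mimics. Control 3 alone reached the mimic range, and the log2 fold change was 0.34 (SE 0.15, limma adjusted p = 0.385), or 0.49 without control 3 (adjusted p = 0.0107). After removal of a trend on transcript base composition and length, described further on, it was 0.041. Slc25a33 was at 6.56, 9.58 and 9.37 FPKM in controls and 5.83, 8.17 and 5.72 FPKM in mimics, with a log2 fold change of −0.33 (SE 0.19, limma adjusted p = 0.487) and overlapping groups.

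The calcium-regulated ATP-Mg/phosphate carriers showed no common direction. Slc25a24 was at 15.8, 16.3 and 10.2 FPKM in controls and 19.05, 17.4 and 12.5 FPKM in mimics (log2 fold change 0.20, SE 0.22). Slc25a23 was at 15.7, 14.9 and 7.78 FPKM in controls and 12.9, 11.7 and 13.8 FPKM in mimics (0.053, SE 0.25). Slc25a25 was at 7.98, 7.15 and 5.36 FPKM in controls and 5.36, 5.46 and 6.01 FPKM in mimics (−0.23, SE 0.16). In all 3, control 3 was the lowest control. Without it the log2 fold changes were −0.0017 for Slc25a24, −0.24 for Slc25a23 (adjusted p = 0.104) and −0.37 for Slc25a25 (adjusted p = 0.0409). With mimic 3 left out as well, they were 0.17 for Slc25a24, −0.30 for Slc25a23 (adjusted p = 0.0199) and −0.42 for Slc25a25 (adjusted p = 0.0102). Slc25a41, placed in the same class, was listed at 0 in every control and at 0.312, 0.0453 and 0 FPKM in mimics.

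Among the cofactor, glutathione and iron carriers, the largest class, 6 of 9 tested genes had a fold change above 0 (56.3% of all tested genes did). The class median was 0.10, or 0.19 without control 3. This class held 2 members with every mimic below every control, and the only member with every mimic above every control. Slc25a40 (ENSMUSG00000054099, chr5:8422850-8454797, plus strand), a relative of the glutathione carrier, was at 3.22, 3.14 and 3.35 FPKM in controls and 6.06, 6.03 and 4.70 FPKM in mimics. The 3 controls lay close together, control 3 included, and all mimics were above them. The log2 fold change of 0.63 (SE 0.14, limma adjusted p = 0.332) lay between 0.58 and 0.73 with any 1 library left out. Without control 3 it was 0.65 (adjusted p = 0.0173), and 0.31 with the trend on length and GC taken out as well (adjusted p = 0.156). Its 3′ UTR holds the seed match shown above.

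Slc25a39 (ENSMUSG00000018677, chr11:102402985-102407946, minus strand), which imports glutathione into mitochondria, lay on the other side of 0. It was at 81.9, 78.5 and 97.0 FPKM in controls and 56.5, 55.5 and 75.7 FPKM in mimics, with a log2 fold change of −0.46 (SE 0.16, limma adjusted p = 0.332). Mimic 3 came close to the lowest control, and without control 3 the estimate was −0.37 (adjusted p = 0.103).

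The promoters of these 2 relatives are shown because their levels differed in opposite directions between the groups, each from 250 bases before to 50 bases after the start (RefSeq, GRCm38.p6), with the SP1 box GGGCGG on either strand in capitals.
Slc25a39 (chr11:102407468-102407767, minus strand): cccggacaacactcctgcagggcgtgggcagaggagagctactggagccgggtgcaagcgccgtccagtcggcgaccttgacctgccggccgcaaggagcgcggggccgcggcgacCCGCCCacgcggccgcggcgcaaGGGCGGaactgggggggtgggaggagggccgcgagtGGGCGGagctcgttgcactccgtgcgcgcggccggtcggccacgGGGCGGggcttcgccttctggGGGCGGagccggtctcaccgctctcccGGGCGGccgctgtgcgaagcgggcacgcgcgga
Slc25a40 (chr5:8422588-8422887, plus strand): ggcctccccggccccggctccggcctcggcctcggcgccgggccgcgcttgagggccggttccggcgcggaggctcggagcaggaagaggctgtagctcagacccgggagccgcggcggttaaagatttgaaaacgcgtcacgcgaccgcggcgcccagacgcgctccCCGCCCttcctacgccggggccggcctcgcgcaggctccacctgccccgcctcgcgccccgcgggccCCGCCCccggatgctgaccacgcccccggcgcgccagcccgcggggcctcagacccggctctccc
Over the 33 promoters matched to 25 tested members, 90.9% held this box, against 64.2% of 9879 promoters of tested genes. The E-box CACGTG was in 21.2% of member promoters (10.6% of all), the CRE TGACGTCA in 6.06% (3.22%) and the GABP motif CCGGAAG in 15.2% (19.6%), all on either strand. The NRF1 letters GCATGCG and the ERR letters AAGGTCA were in none of the 33, against 6.74% and 3.07% of all. These are matches of letters only.

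The mitoferrins, which carry iron into mitochondria for haem and iron-sulphur clusters, also lay on opposite sides of 0, but their ratio overlapped between groups. Slc25a28, mitoferrin 2, was at 23.3, 21.5 and 23.03 FPKM in controls and 16.0, 17.6 and 21.2 FPKM in mimics (log2 fold change −0.30, SE 0.13, limma adjusted p = 0.380), with mimic 3 just below the lowest control. Slc25a37, mitoferrin 1, was at 18.3, 18.7 and 23.7 FPKM in controls and 22.2, 23.8 and 21.5 FPKM in mimics (0.15, SE 0.13, limma adjusted p = 0.635), with control 3 inside the mimic range. Without control 3 the estimate for Slc25a37 was 0.26 (adjusted p = 0.0570).

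The carriers of vitamin-derived cofactors described here had overlapping groups. Slc25a17, the peroxisomal carrier of CoA, FAD and NAD, was at 23.4, 23.2 and 28.2 FPKM in controls and 26.6, 28.8 and 25.1 FPKM in mimics (log2 fold change 0.10, SE 0.12). Slc25a32, the folate and FAD carrier, was at 2.40, 2.55 and 1.92 FPKM in controls and 3.68, 3.93 and 2.01 FPKM in mimics (0.32, SE 0.22, limma adjusted p = 0.529). Its first 2 mimics were above every control and mimic 3 was not. Slc25a16, a carrier linked to CoA, was at 4.40, 3.92 and 4.60 FPKM in controls and 5.80, 5.30 and 4.04 FPKM in mimics (0.18, SE 0.15), with the same arrangement of libraries. Slc25a51, the NAD carrier, had a log2 fold change of 0.043.

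**Figure D3:**
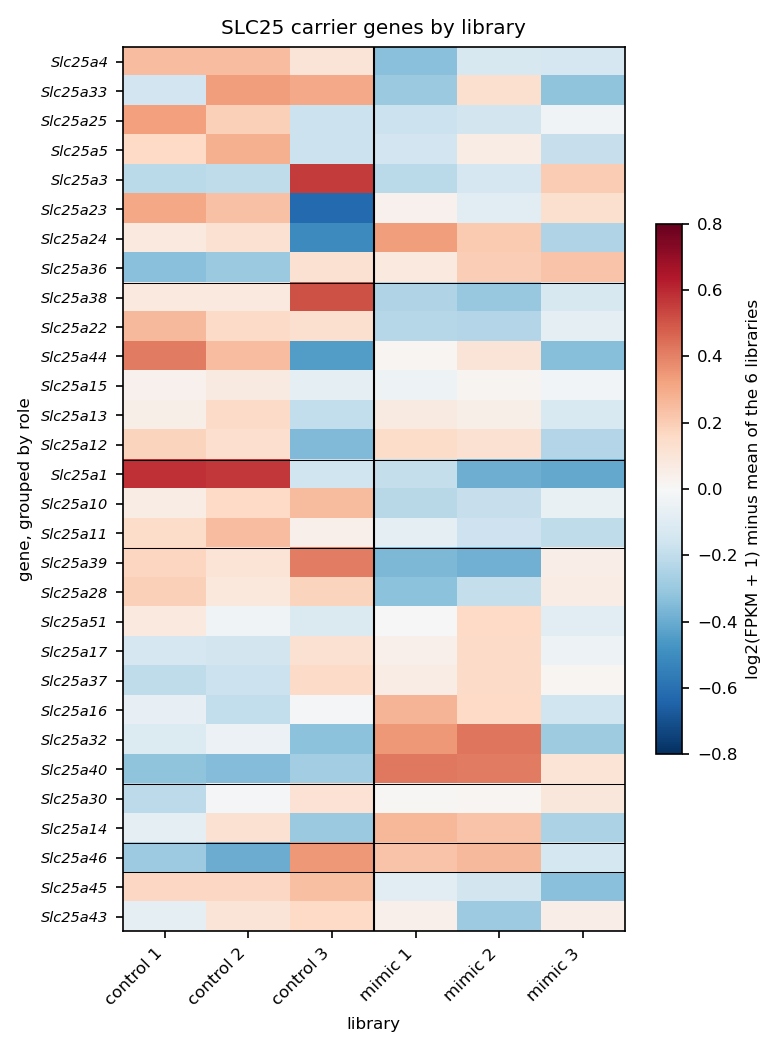
log2(FPKM + 1) of 30 of the tested SLC25 genes, each minus its mean over the 6 libraries, with genes grouped by role in the same order as the plot of fold changes and the black vertical line between controls and mimics. The strongest colours of control 3 lie in Slc25a3 and Slc25a38 (red) and in Slc25a23 and Slc25a24 (blue), whereas Slc25a40 is blue in all 3 controls and red in all 3 mimics.

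Of 9 amino acid carriers, 6 were tested, 5 of them with a fold change below 0, and the class median was −0.086, or −0.22 without control 3. Slc25a38, which imports glycine for haem synthesis, was at 9.97, 10.003 and 13.8 FPKM in controls and 7.81, 7.46 and 8.54 FPKM in mimics. The groups did not overlap, with a log2 fold change of −0.44 (SE 0.15, limma adjusted p = 0.332), or −0.30 without control 3, the highest library (adjusted p = 0.0599). Slc25a22, a glutamate carrier, was at 4.30, 3.92 and 3.84 FPKM in controls and 2.78, 2.76 and 3.19 FPKM in mimics. It too had no overlap, with a log2 fold change of −0.36 (SE 0.13, limma adjusted p = 0.335), and −0.39 without control 3 (adjusted p = 0.0524).

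The aspartate-glutamate carriers, Slc25a12 (aralar) and Slc25a13 (citrin), which complete the malate-aspartate shuttle together with Slc25a11, showed no separation. Slc25a13 was at 17.5, 18.9 and 14.6 FPKM in controls and 17.8, 17.5 and 15.4 FPKM in mimics, with a log2 fold change of −0.0018 (SE 0.13). Slc25a12 was at 9.36, 9.03 and 6.15 FPKM in controls and 9.15, 8.97 and 6.79 FPKM in mimics, with a log2 fold change of 0.028 (SE 0.19), a sign that turned under both other scalings of the libraries. In both genes control 3 and mimic 3 were the lowest of their groups. The ornithine carrier Slc25a15 (1.35 to 1.60 FPKM over all libraries) and Slc25a44, which carries branched-chain amino acids (3.12 to 6.49 FPKM), had log2 fold changes of −0.025 and −0.15 and overlapping groups. Without control 3, Slc25a44 was at −0.41 (adjusted p = 0.103).

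The uncoupling-protein-like carriers Slc25a30 and Slc25a14 were both above 0, without separation. Slc25a30 was at 31.8, 36.5 and 40.04 FPKM in controls and 37.1, 37.4 and 39.5 FPKM in mimics (log2 fold change 0.078, SE 0.12), and Slc25a14 lay between 0.690 and 1.49 FPKM (0.16). Slc25a46, which sits in the outer membrane and acts in mitochondrial shape rather than transport, was at 10.02, 9.25 and 16.2 FPKM in controls and 14.8, 15.1 and 11.2 FPKM in mimics (0.23, SE 0.22). Control 3 was its highest library, and without it the estimate was 0.46 (adjusted p = 0.0566).

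Slc25a45, placed with the carriers of other substrates, was at 11.3, 11.3 and 11.9 FPKM in controls and 9.30, 8.88 and 7.70 FPKM in mimics. The controls were close together and every mimic was lower, with a log2 fold change of −0.38 (SE 0.12, limma adjusted p = 0.332), and −0.36 without control 3 (adjusted p = 0.0484). Slc25a43 lay between 0.880 and 1.57 FPKM with overlapping groups (log2 fold change −0.13).

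The 11 members under 1 FPKM were not tested. Apart from Slc25a20 and Slc25a41, given above, they were Slc25a42, Slc25a53, Slc25a26, Slc25a2, Slc25a18, Slc25a35, Slc25a47, Slc25a48 and Slc25a29, and their groups all overlapped. The highest of these was Slc25a42, a CoA carrier, with 0.985 ± 0.362 FPKM in controls and 0.894 ± 0.187 FPKM in mimics (SD, n = 3). Slc25a26, the S-adenosylmethionine carrier, was at 0.624 ± 0.182 and 0.550 ± 0.0159 FPKM. Slc25a29, a carrier of basic amino acids, did not exceed 0.0266 FPKM in any library. In all, 36 of the 42 members were above 0 in all 6 libraries and 6 were at 0 in at least 1.

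Ratios of related carriers within a library largely cancel differences in scale between libraries, and 8 pairs were compared. An exact two-sided permutation test of 3 against 3 libraries cannot go below p = 0.1. The log2 ratio of Slc25a39 over Slc25a40, on the (FPKM + 1) scale, was 4.35 ± 0.12 in controls and 3.26 ± 0.42 in mimics (SD, n = 3), a difference of −1.09 with no overlap (exact permutation p = 0.1, adjusted over the 8 pairs 0.32). For Slc25a36 over Slc25a33 it was 1.06 ± 0.26 and 1.72 ± 0.24, a difference of 0.67 that also had no overlap (exact permutation p = 0.1, adjusted 0.32). In the first pair both genes contributed, the abundant one lower and the scarce one higher. A ratio leaves in place a trend on base composition, and these pairs join transcripts of 59.7% and 39.7% GC and of 40.7% and 53.8% GC. With the length and GC trend taken out, the differences were −0.62 and 0.22, and −0.28 and 0.061 without control 3 as well.

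The other 6 pairs overlapped. Slc25a28 over Slc25a37, the mitoferrins, had a difference of −0.45, with control 3 and mimic 3 alike, and Slc25a24 over Slc25a25 had 0.43 (exact permutation p = 0.2 each). With the length and GC trend taken out, these were −0.079 and 0.18, and −0.089 and −0.066 without control 3 as well. The ADP/ATP carrier ratio of Slc25a5 over Slc25a4 was 2.08 ± 0.15 in controls and 2.29 ± 0.13 in mimics (SD, n = 3, exact permutation p = 0.2). The ratios of Slc25a13 over Slc25a12 (−0.030), Slc25a10 over Slc25a11 (−0.021) and Slc25a24 over Slc25a23 (0.15) differed by less than the spread within a group.

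**Figure D4:**
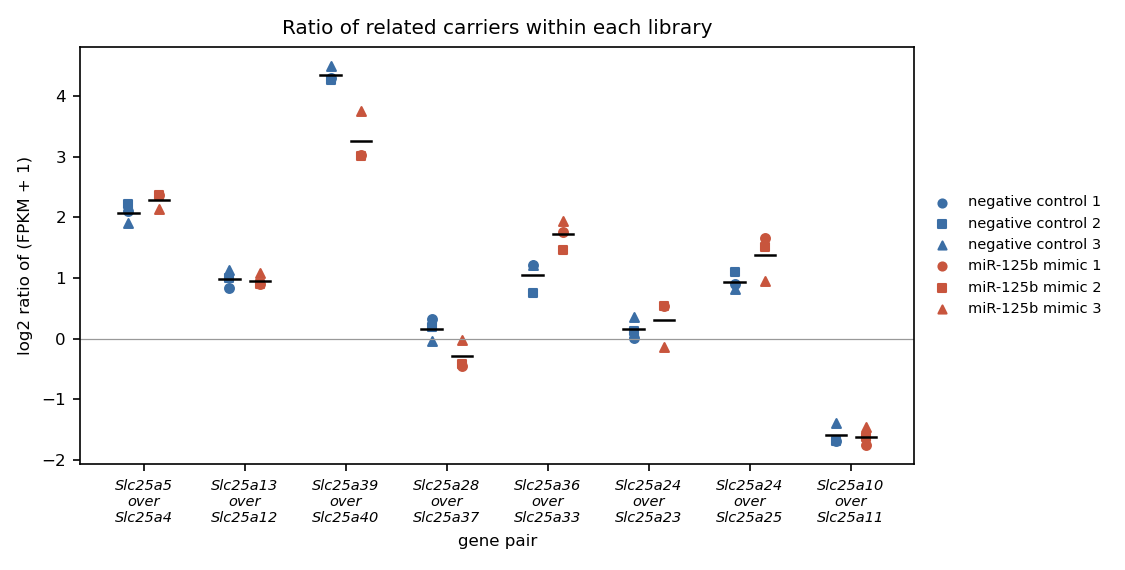
log2 ratio of (FPKM + 1) for 8 pairs of related carriers in each library, with negative controls in blue, mimics in red, a symbol for each replicate number and a black bar at each group mean. Slc25a39 over Slc25a40 has a mean of 4.35 in controls and 3.26 in mimics, and Slc25a36 over Slc25a33 has 1.06 and 1.72, while the other 6 pairs overlap.

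Fold changes of the carriers varied with the base composition of their transcripts. Across the 31 members, Spearman's rho between log2 fold change and the GC content of the longest coding transcript was −0.84, and with its length 0.58. Over 10128 tested genes these were −0.57 and 0.42. The points share the same 6 libraries, and genes are not independent replicates. Slc25a40 had the lowest GC content of the tested members (39.7%), and the 9 members without overlap on the lower side had 51.8% to 60.9%, with a median length of 1791 bases beside 2784 over all 31. Among tested genes of at least 50% GC, a limit chosen after the values were seen, mimics lay below controls without overlap in 12.7% and above in 3.95%. Of the 15 members with such transcripts, 9 (60.0%) were lower and 0 higher.

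With the trend on length and GC removed from each library, the median fold change of members was −0.072, beside −0.0019 over all genes, and 0 members passed. Slc25a40 was then at 0.41 (limma adjusted p = 0.514), Slc25a1 at −0.41 (0.475), Slc25a4 at −0.30 (0.545) and Slc25a45 at −0.28 (0.651). Slc25a36 was at 0.041 (0.946), and at 0.078 without control 3. Slc25a39 was at −0.20, Slc25a11 at −0.12, Slc25a10 at −0.072 and Slc25a28 at −0.029. The carboxylate class median went from −0.31 to −0.12, and that of the cofactor class from 0.10 to 0.011. When control 3 was left out as well, 1 member, Slc25a1, passed (−0.51, adjusted p = 0.0350), against 2.51% of all genes. Of the others called without control 3 alone, Slc25a40 was then at 0.31, Slc25a4 at −0.24, Slc25a25 at −0.20, Slc25a45 at −0.12 and Slc25a11 at −0.048. Their limma adjusted p ran from 0.156 to 0.736. In the same setting Slc25a39, Slc25a10, Slc25a28 and Slc25a38 lay at 0.035, 0.13, 0.13 and 0.033, on the other side of 0. Whether base composition, RNA quality or library preparation has a part in these differences was not tested.

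**Figure D5:**
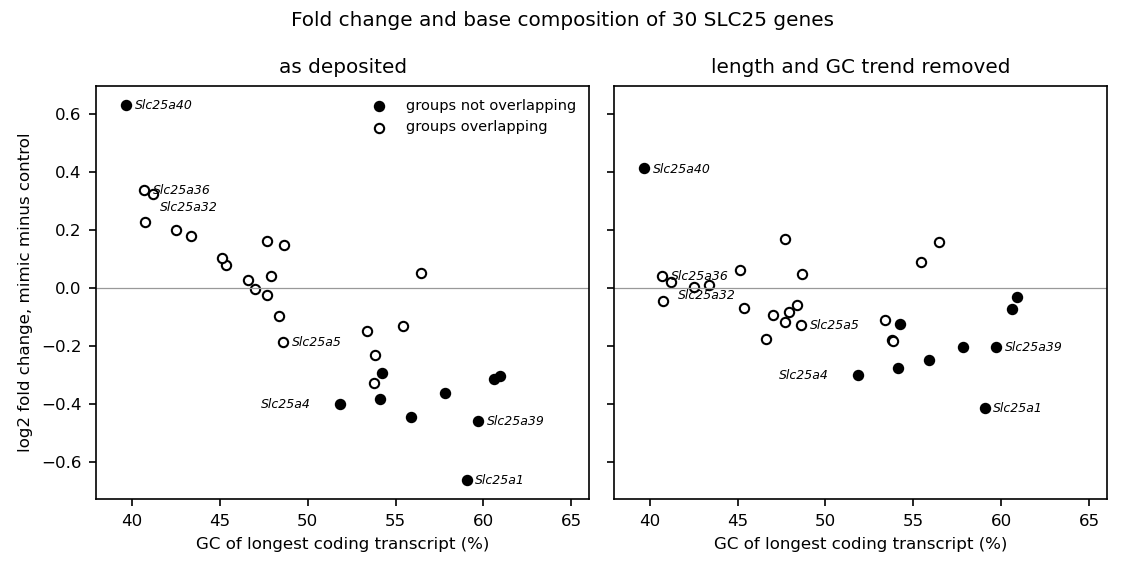
log2 fold change (mimic minus negative control) of 30 of the tested SLC25 genes against the GC content of the longest coding transcript, from the values as deposited (left) and after the trend of each library on length and GC was taken out (right). Filled points are genes whose deposited values did not overlap between groups. The left panel slopes downwards (rho −0.84 over all 31), with Slc25a40 at 0.63 and Slc25a1 at −0.66, and in the right panel these lie at 0.41 and −0.41.

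The 9 tested members with a seed match had a median log2 fold change of 0.053, with 5 above 0 and 4 below, and the 21 without one had −0.18, with 8 above and 13 below. Without control 3 the medians were −0.066 and −0.25, and after removal of the length and GC trend 0.011 and −0.092. Of the members with a site, Slc25a45 was lower and Slc25a40 higher without overlap, and the groups of the other 7 overlapped.

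Of the carriers that bear other symbols, 3 were tested, 2 of them with every mimic below every control (7.49% of all tested genes). Ucp2, an uncoupling-protein homologue abundant in macrophages, was at 138, 132 and 120.6 FPKM in controls and 104.9, 91.3 and 110.5 FPKM in mimics, with no overlap (log2 fold change −0.35, SE 0.12, limma adjusted p = 0.332). Mtch1, a relative in the outer membrane, was at 13.3, 10.5 and 9.28 FPKM in controls and 8.51, 8.11 and 8.18 FPKM in mimics (−0.36, SE 0.15, limma adjusted p = 0.364), again with no overlap. Mtch2, which inserts proteins into the outer membrane, was at 13.0, 13.4 and 12.3 FPKM in controls and 12.7, 14.3 and 12.2 FPKM in mimics (0.018, SE 0.11). Without control 3, Ucp2 and Mtch1 passed (adjusted p = 0.0287 and 0.0297), as did 12.2% of all genes on the lower side. Once the trend on length and GC was also taken out, neither passed (−0.22 and −0.070, adjusted p = 0.233 and 0.721), and over 6 libraries that step alone moved Mtch1 to −0.11. Ucp1 and Ucp3 have no row in the table.

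Of 33 partner genes, which import the carriers, work beside them or regulate mitochondrial biogenesis, 29 were tested. None passed by limma, 1 was at an unadjusted p under 0.05, and 13 had a fold change above 0 and 16 below. Enzymes of citrate metabolism and of the malate-aspartate and glycerol phosphate shuttles had a median log2 fold change of −0.14, with 5 of 7 below 0. Without control 3, 5 of these 7 passed, where 12.2% of all genes passed on the lower side. They were Mdh2, mitochondrial malate dehydrogenase (−0.36, adjusted p = 0.0144), Got1 and Got2, the aspartate aminotransferases (−0.31 and −0.30, adjusted p = 0.0296 and 0.0292), citrate synthase (Cs) (−0.28, adjusted p = 0.0362) and ATP citrate lyase (Acly) (−0.29, adjusted p = 0.0313). Once that trend was taken out as well, none of the 5 passed (Mdh2 −0.017, Got2 −0.051, Got1 −0.094, Cs −0.19 and Acly −0.21, with limma adjusted p from 0.137 to 0.912). In Got1 the groups did not overlap with control 3 included, at 83.7, 84.3 and 71.6 FPKM in controls and 69.2, 63.7 and 70.5 FPKM in mimics. In Mdh2 control 3 lay within the mimic range, and in Acly, Cs and Got2 it lay below it. With control 3 included, the log2 fold changes of these 4 genes were −0.23, −0.14, −0.13 and −0.18.

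Letm1, an inner membrane protein of ion exchange, was at 3.02, 2.70 and 2.05 FPKM in controls and 1.92, 2.00 and 1.97 FPKM in mimics, without overlap (log2 fold change −0.27, SE 0.15, limma adjusted p = 0.481). In the TIM22 import route, 3 of 6 tested genes were above 0 and 3 below, with a median of 0.0018. Its small chaperone Timm10 was at 5.43, 7.59 and 2.00 FPKM in controls and 1.95, 3.99 and 1.99 FPKM in mimics, a log2 fold change of −0.64 (SE 0.40) that became −1.07 without control 3 (adjusted p = 0.0299) and −0.82 with the trend taken out as well (adjusted p = 0.127). In the carnitine route 2 of 3 genes were above 0 (median 0.019). Among biogenesis regulators 4 of 5 were (median 0.13), beside 56.3% of all tested genes. Ppargc1b was at 0.52 (SE 0.29) with overlapping groups, and at 0.21 without control 3 (limma adjusted p = 0.439). In that setting Gabpa passed at 0.31 and Esrra at −0.44 (limma adjusted p = 0.0256 and 0.0460). With the trend also taken out they were at −0.067 and −0.051, and neither passed.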

How the data were processed

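The values are FPKM as deposited by the authors, 1 per gene and library, in 6 mRNA libraries from RAW264.7 cells. The submitters' processing notes name HISAT2, fastp, DESeq2 and the build mm10, without versions or roles. The annotation, counter and strand setting: not given in the sources used here. Symbols, positions, transcript lengths, GC content and 3′ UTRs came from GENCODE M21 (GRCm38), which named 16582 of 16665 identifiers. Depth was recovered from low FPKM values, taking those worth at most 20 fragments, and 98.5% to 99.0% of them were whole to within 0.1 fragment.

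Genes with a mean of at least 1 FPKM (10166) entered a two-sided limma test (version 3.58.1, R 4.3.3) of log2(FPKM + 1), the prior variance following the mean level, and p-values were adjusted by Benjamini-Hochberg over all of them, with a threshold of 0.05. Fold changes are mimic minus control; the added 1 makes those of low genes too small. SE comes from limma's moderated fit and SD from the 3 libraries of a group. The script was tested on simulated data with equal noise in all libraries and planted changes larger than that of any member. That test does not show whether changes of the size seen here could be found. The members, role classes, partner and marker lists were chosen with earlier results of these data known. All members enter the counts, and 1 member and 1 partner are not reported here by name; full values were given for the 8 most abundant, the 6 of smallest p on either side of 0 and both genes of each pair, with Ucp2, Mtch1 and Mtch2, and for partners those with the smallest p. Got2, Cs, Acly, Gabpa and Esrra were named after their values were seen.

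Libraries of the same number deviated together from their group means (correlations 0.29, 0.18 and 0.34 for numbers 1, 2 and 3), although control 2 also did so with mimic 1 (0.31). By a rule of over 0.1 in every pair, the numbers were used as pairs in the counts by number and in a replicate block. The labels state no pairing, and the main limma fit and the permutation tests were unpaired. With deviations taken from group means, a library standing apart in both groups can give positive values for the other numbers. The rule therefore cannot show that the samples were paired. Alternatives were another pseudocount (0.1), filters (none, or 5 FPKM), 2 scalings, limma's library weights, a replicate block, voom on recovered fragments, a trend on length and GC removed, and each library left out. Leaving out control 3 together with that trend or with mimic 3 was added after the data were seen. Motifs were searched in RefSeq promoters (GRCm38.p6) on both strands. Protein sequences were not used here.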

Additional observations from a re-analysis of the deposited data

How the results depend on the processing

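With 6 libraries, 0 members passed limma under another pseudocount, filter or scaling, recovered fragments, the length and GC trend or the replicate block. The smallest limma adjusted p among members with the replicate block was 0.266, so blocking on the replicate number changed no call. Library weights passed 22. With each library left out in turn, 0 to 7 members passed, and the 7 came without control 3. Without control 3, 1 passed after removal of the trend and 19 when mimic 3 was left out too. The cause was not tested. The median log2 fold change of members (−0.095) was −0.18 for genes of at least 5 FPKM, −0.021 with quantile normalisation, −0.14 to −0.014 with each library left out and 0.0021 without control 3 and the trend. With a library left out, 10 to 21 members (21 without control 3) and 2 to 6 of 8 pair ratios (4 without control 2, 6 without mimic 3) did not overlap. Of these settings, the share of all genes that did not overlap was computed only without control 3 (57.9%). The other counts therefore say nothing about the carriers in particular. Likewise 0 to 9 partners and 0 to 2 carriers under other symbols passed limma, the highest without control 3. In that setting 11.6% of all genes passed as higher and 12.2% as lower.

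Of 421 alternative fold changes of the 25 fully described members, 344 kept their direction and their side of the threshold, 45 newly passed in the same direction and 32 changed sign, 2 of which, both of Slc25a23, passed (adjusted p = 0.0338 with library weights and 0.0199 without control 3 and mimic 3); 11 members had no change of sign. Quantile normalisation gave 0.062 for Slc25a5, 0.061 for Slc25a3 and −0.021 for Slc25a12, and trimmed mean scaling −0.0067 for Slc25a12. Library weights gave 0.033 for Slc25a3, −0.021 for Slc25a12 and −0.235 for Slc25a23. Removing the trend gave −0.070 for Slc25a30, −0.043 for Slc25a46 and −0.18 for Slc25a12. Without control 3 and the trend, Slc25a3 was at 0.25, Slc25a39 at 0.035, Slc25a32 at −0.17, Slc25a38 at 0.033, Slc25a12 at −0.34, Slc25a28 at 0.13, Slc25a33 at 0.017, Slc25a24 at −0.26 and Slc25a10 at 0.13. Without control 3 and mimic 3, Slc25a3 was at 0.035, Slc25a12 at −0.020 and Slc25a23 at −0.30. With each library left out, Slc25a3 ranged from −0.23 to 0.16, Slc25a30 from −0.0086 to 0.15, Slc25a13 from −0.10 to 0.076, Slc25a12 from −0.14 to 0.15, Slc25a24 from −0.0017 to 0.37 and Slc25a23 from −0.24 to 0.22. Depth limits the members under 1 FPKM.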
